A study of Mus musculus with 5 samples.

Results

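The goblet mucin and secreted product genes described here are 10 in number: Muc2, Tff3, Zg16, Fcgbp, Clca1, Spink4, Agr2, Retnlb, Guca2a and Spdef. They were taken by name, as a list that was put together with earlier results of these data known, and each was found among the 27998 genes of a droplet count matrix and the 22042 genes of a bulk table. The droplet library pooled tdTomato+ cells sorted from the small intestine epithelium of 4 C57Bl/6J mice of genotype Neurog3-Cre; R26-LSL-tdTomato, aged 6 weeks and given no treatment, so that it holds the lasting descendants of cells that once expressed Neurog3, the transcription factor of enteroendocrine cell (EEC) progenitors, and not EECs alone. The bulk data came from 6 C57Bl/6J mice of genotype Cck-Cre; R26-LSL-tdTomato, aged 6 to 8 weeks, each of which gave 1 library of tdTomato+ cells (CCK+, cells in which the Cck gene has driven Cre at any time) and 1 of tdTomato- epithelial cells (CCK-). Of the mice, 3 were fasted overnight and 3 were fasted and then refed Ensure, a liquid diet. Every mouse of both experiments carried the reporter.

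Goblet cells are the mucus-secreting cells of the gut epithelium. They assemble the gel-forming mucin MUC2 in the endoplasmic reticulum and Golgi, pack it into granules with smaller proteins, and release it to build the mucus that keeps bacteria off the epithelium. Muc2 encodes that mucin, Fcgbp a large protein that is bound to it, Clca1 a protease that cleaves it, and Zg16 a lectin that binds bacteria. Tff3 (trefoil factor), Spink4 (a Kazal-type protease inhibitor) and Retnlb (an antibacterial resistin-like protein) are secreted with the mucus. Guca2a encodes guanylin, a peptide ligand of guanylate cyclase C that drives chloride and water secretion. Agr2 encodes a protein disulfide isomerase of the endoplasmic reticulum that takes part in mucin folding, and Spdef a transcription factor of goblet and Paneth cell maturation.

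The genes lie on 6 chromosomes of the mouse genome (GRCm38, GENCODE vM21), and each is protein-coding. Muc2 lies at chr7:141690340-141754693, Fcgbp at chr7:28071236-28120862 and Zg16 at chr7:127050156-127087328. Guca2a lies at chr4:119637704-119639471, Spink4 at chr4:40920052-40931395, Clca1 at chr3:145003817-145032776, Agr2 at chr12:35992907-36004087, Retnlb at chr16:48816856-48818892, Spdef at chr17:27714352-27728955 and Tff3 at chr17:31125306-31129646. RefSeq promoter sequence (GRCm38.p6) was at hand for 5 of the 10. Of these, 4 are shown, each as the 250 bases before the RefSeq start on the plus strand, which for Agr2 and Guca2a lies a little inside the GENCODE gene given above: Muc2 and Fcgbp, which moved together from cell to cell, and Agr2 and Guca2a, which had patterns of their own. Capitals mark matches on either strand to an E-box (CANNTG), to TATAAA and to the forkhead motif TGTTTAC.
Muc2, chr7:141690090-141690339: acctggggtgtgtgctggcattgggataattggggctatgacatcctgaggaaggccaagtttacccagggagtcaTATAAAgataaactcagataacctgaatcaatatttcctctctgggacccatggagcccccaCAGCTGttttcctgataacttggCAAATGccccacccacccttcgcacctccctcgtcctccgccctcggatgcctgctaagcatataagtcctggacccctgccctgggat
Fcgbp, chr7:28070986-28071235: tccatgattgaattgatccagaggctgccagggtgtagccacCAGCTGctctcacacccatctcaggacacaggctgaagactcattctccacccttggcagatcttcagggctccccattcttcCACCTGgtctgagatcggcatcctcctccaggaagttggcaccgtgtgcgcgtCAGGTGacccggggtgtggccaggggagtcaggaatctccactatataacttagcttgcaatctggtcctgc
Agr2, chr12:35992675-35992924: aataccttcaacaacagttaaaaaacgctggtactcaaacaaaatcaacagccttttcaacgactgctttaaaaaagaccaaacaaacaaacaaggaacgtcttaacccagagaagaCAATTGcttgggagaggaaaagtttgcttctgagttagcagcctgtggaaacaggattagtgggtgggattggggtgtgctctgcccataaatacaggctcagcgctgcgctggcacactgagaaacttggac
Guca2a, chr4:119637482-119637731: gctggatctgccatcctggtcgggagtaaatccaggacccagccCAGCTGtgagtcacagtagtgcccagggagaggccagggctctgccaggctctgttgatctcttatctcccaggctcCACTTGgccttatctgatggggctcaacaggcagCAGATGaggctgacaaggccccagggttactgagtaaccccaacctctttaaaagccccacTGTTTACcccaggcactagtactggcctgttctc
An E-box was found in 66.2% of the 32851 promoter windows of this length, TATAAA in 12.4% and TGTTTAC in 3.17%. Fcgbp and Guca2a held 3 E-boxes each, Muc2 held 2 and Agr2 held 1. Muc2 also held 1 TATAAA and Guca2a 1 TGTTTAC. In Spdef, the remaining gene with a sequence (chr17:27728952-27729201, minus strand), none of the motifs was matched. A match describes the letters of the window and no binding.

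The droplet cells carried a large amount of RNA of these genes. UMIs (unique molecular identifiers) each stand for 1 captured RNA molecule. A barcode counted as a cell if it had over 1000 detected genes and if mitochondrial genes took less than 10% of its UMIs. This left 9451 cells, with 1754 to 65130 UMIs each (median 5984). The 10 genes held 23.9% of all UMIs in these cells. They also held 22.4% of the UMIs in free RNA, which was read from 410487 barcodes with 1 to 100 UMIs and 2007644 UMIs in all. Free RNA enters every droplet, so a level in a group of cells was always set beside its level there. Cells were grouped by simple rules, each named for its genes: 1475 cells were 2010109I03Rik-high (5 or more UMIs per 10000), 813 held at least 1 UMI of both Ccl6 and Ccl9, 1099 held 2 or more UMIs of Mmp7, 2760 were Tph1-high (10 or more per 10000), 1246 were Cck-high (500 or more per 10000), and 3340 met none of the rules. Tph1 encodes the enzyme of serotonin synthesis and Cck the hormone cholecystokinin. A cell could meet several rules, as 1210 (12.8%) did, and doublets were not removed. There is 1 library, so no test was made. The 95% intervals are Poisson for levels and exact binomial for shares of cells, and cover counting error only.

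Markers of cell types were compared with the group rules. Of 10 EEC markers, 7 were above free RNA in the Cck-high cells and 6 in the Tph1-high cells. These counts include Cck and Tph1, each of which is high in its own group by the rule. Of 12 goblet markers that are not among the 10 genes, 10 were above free RNA in the 2010109I03Rik-high cells, 5 in the Ccl6 and Ccl9 cells and 4 in the Mmp7 cells. In cells that met a single rule the count was 10 in each of these 3 groups. The 7 Paneth markers, of which Mmp7 is 1, were above free RNA in both the Mmp7 cells (1858 UMIs per 10000 in sum) and the Ccl6 and Ccl9 cells (1671), against 369.8 in free RNA. In the 372 cells that met the Ccl6 and Ccl9 rule alone the Paneth sum was 106.2. The groups are therefore called by their rules and not by cell types.

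Most of the 10 genes were highest in the 2010109I03Rik-high cells. This was the case for 6 of them: Muc2, Tff3, Zg16, Fcgbp, Clca1 and Spdef. Zg16 reached 2264 UMIs per 10000 there (2261 to 2267), 2.66 times its level in free RNA (851.1) and 8.79 times that in Cck-high cells (257.7). Tff3 reached 1283 per 10000, Fcgbp 361.5, Muc2 132.6 (131.9 to 133.4) and Clca1 132.1. In free RNA Tff3 was at 849.5, Fcgbp at 234.3, Muc2 at 86.0 and Clca1 at 69.4. UMIs count molecules, so that the Muc2 and Clca1 levels can be set side by side, and together the 10 genes took 43.5% of the UMIs of these cells. For Muc2, Tff3, Zg16, Fcgbp and Clca1 the order was the same: 2010109I03Rik-high, then cells with none of the rules, Mmp7, Ccl6 and Ccl9, Tph1-high and Cck-high, and no intervals of neighbors in that order overlapped. The middle of this order depended on cells that met several rules. In cells that met a single rule, the Mmp7 cells were above the cells with none of the rules for all 5 genes, with 1480 against 1290 per 10000 for Zg16 and 90.3 against 76.9 for Muc2, and the Ccl6 and Ccl9 cells were above them for Tff3 (804.6 against 799.8), Fcgbp (251.6 against 246.7) and Clca1 (102.5 against 96.0). By the mean over cells, the Mmp7 cells were above the rule-free cells for Muc2 (97.9 against 89.98) and Tff3 (991.6 against 936.8). The same was the case for Zg16 (1506 against 1408), whereas Fcgbp (292.6 against 297.5) and Clca1 (108.2 against 110.8) kept the order above. Spdef was low, at 1.45 per 10000 in 2010109I03Rik-high cells (1.38 to 1.53) and 1.35 in free RNA. Its levels in the Mmp7 cells (0.966), the Ccl6 and Ccl9 cells (0.943) and the cells with none of the rules (0.938) did not differ beyond counting error between neighbors.

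The other 4 genes had another order. Spink4 was highest in the Mmp7 cells, at 205.3 per 10000 (204.5 to 206.1), followed by the Ccl6 and Ccl9 cells at 184.5, and was 126.9 in 2010109I03Rik-high cells, close to the 116.1 of free RNA. Retnlb was highest in the same groups, at 3.29 (3.19 to 3.39) and 2.89 (2.79 to 2.99), against 1.27 in 2010109I03Rik-high cells and 1.02 in free RNA. Guca2a was highest in the Ccl6 and Ccl9 cells, at 21.2 per 10000 (20.9 to 21.4), 4.70 times its level in 2010109I03Rik-high cells, which at 4.50 lay below free RNA (5.80). Agr2 was highest in the Ccl6 and Ccl9 cells as well, at 61.6 (61.2 to 62.1) against 28.0 in free RNA. Spink4, Retnlb, Guca2a and Agr2 were thus the genes whose highest level was outside the 2010109I03Rik-high cells.

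**Figure D1:**
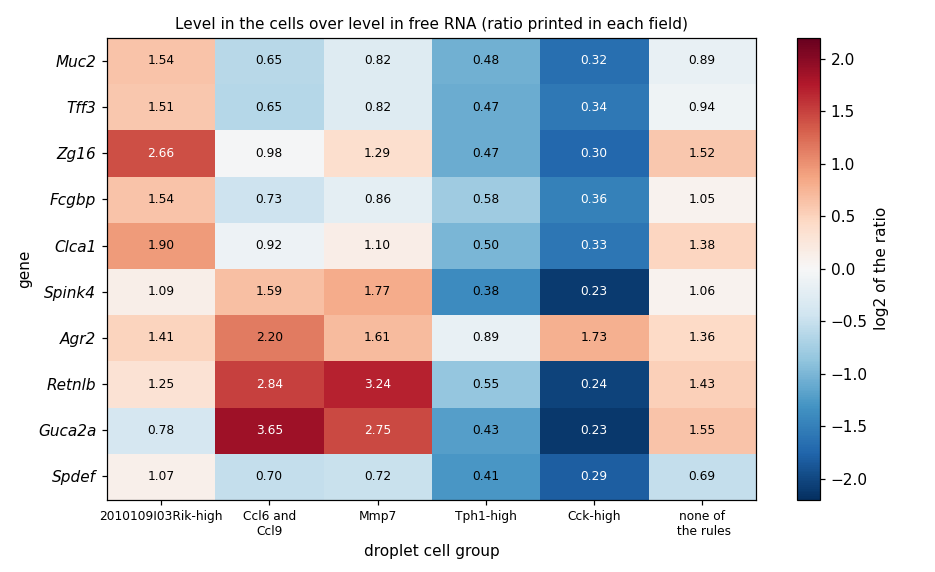
Level of each gene (rows) in each droplet cell group (columns) divided by its level in free RNA, colored on a log2 scale with the ratio printed. In the Cck-high column 9 genes lie between 0.228 and 0.358 and Agr2 at 1.73.

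Cells of the Ccl6 and Ccl9 rule were not alike. Of the 813, 326 also met the Mmp7 rule, and these had a higher median depth (14073.5 UMIs, against 8317 in the 487 others). Zg16 was 444.1 per 10000 in cells with Mmp7 and 1349 in those without, and Agr2 was 38.2 and 93.0. Muc2 differed likewise, with 36.0 and 83.1. Guca2a (19.4 and 23.6), Spink4 (190.3 and 176.9) and Retnlb (2.98 and 2.77) differed much less between these cells. Mmp7 cells that did not meet the Ccl6 and Ccl9 rule, 773 in number, had 1654 per 10000 of Zg16, 218.0 of Spink4 and 13.1 of Guca2a. In cells that met a single rule, Guca2a was 6.10 times as high in the Ccl6 and Ccl9 cells as in the 2010109I03Rik-high cells and Agr2 2.61 times, and Spink4 and Retnlb were 1.89 and 3.54 times as high in the Mmp7 cells as in the 2010109I03Rik-high cells.

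In the Tph1-high and Cck-high cells the 10 genes were below free RNA, with the exception of Agr2 in Cck-high cells. In Cck-high cells 9 genes were at 0.228 to 0.358 of their free RNA level, in a narrow range that runs from Guca2a to Fcgbp. Agr2 was at 48.4 per 10000 (47.9 to 48.9), 1.73 times its free RNA level, and 68.1% of Cck-high cells were above that level, where Zg16 was above its own in 5.46% of them. The median Cck-high cell had 40.4 Agr2 UMIs per 10000, more than the median 2010109I03Rik-high cell with 26.5. Per 100 UMIs of Zg16, Cck-high cells held 18.8 of Agr2, whereas free RNA held 3.29 and 2010109I03Rik-high cells 1.75. For Muc2 the corresponding counts per 100 of Zg16 were 10.5 in Cck-high cells and 10.1 in free RNA, the closest match of these genes. Others differed more, with Fcgbp at 32.5 in Cck-high cells and 27.5 in free RNA and Tff3 at 111.4 and 99.8. Spink4 (10.5 and 13.6) and Guca2a (0.514 and 0.681) differed in the other direction.

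Tph1-high cells had the lowest Agr2 level of the 6 groups. It was 24.9 per 10000 there, 0.889 of the free RNA level, and the other 9 genes were at 0.384 to 0.583 of theirs. In cells that met both the Cck and the Tph1 rule (268) Agr2 was 50.98 per 10000 (49.9 to 52.0), in Cck-high cells outside the Tph1 rule 47.7 (47.2 to 48.2), and in Tph1-high cells outside the Cck rule 20.04 (19.8 to 20.3). Agr2 was thus high in cells of the Cck rule, with or without the Tph1 rule. With each cell thinned to 2000 UMIs, Agr2 was 46.2 per 10000 in Cck-high and 20.9 in Tph1-high cells, 58 shallower Tph1-high cells being left out.

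**Figure D2:**
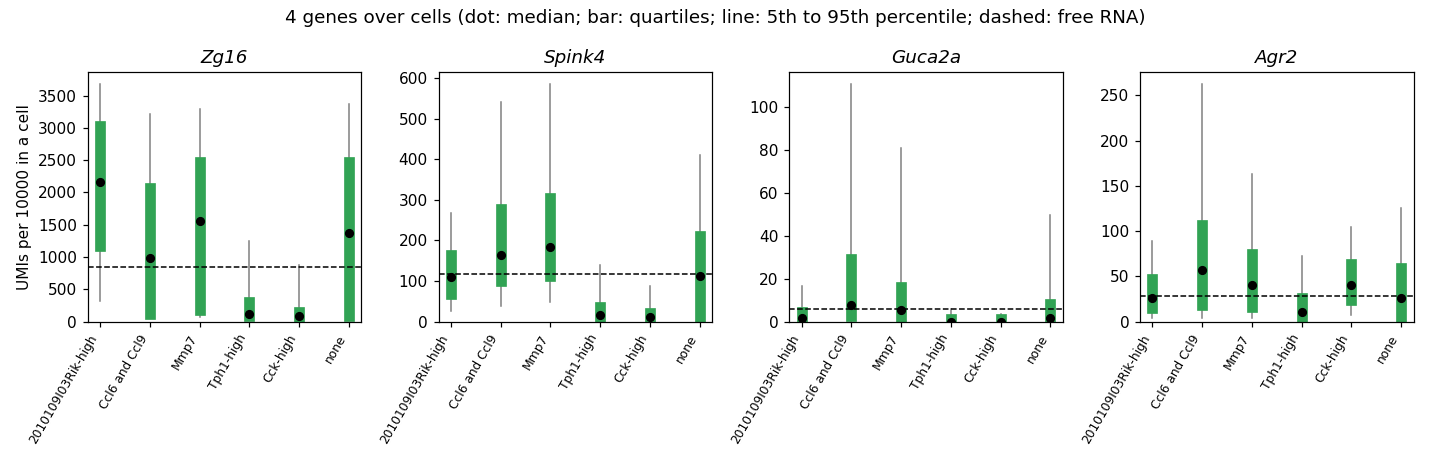
UMIs per 10000 in single cells of each group for Zg16, Spink4, Guca2a and Agr2, with the median (dot), quartiles (bar), 5th to 95th percentile (line) and the free RNA level (dashed). Zg16 has its highest median in 2010109I03Rik-high cells (2166) and its lowest in Cck-high cells (87.8), whereas the Agr2 median of Cck-high cells (40.4) lies above free RNA (28.0).

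Single cells fell into a low and a high range of these genes. The share of a cell's UMIs taken by the 10 genes had a median of 48.7% in 2010109I03Rik-high cells, 39.4% in Mmp7 cells, 28.1% in Ccl6 and Ccl9 cells, 3.86% in Tph1-high cells and 3.62% in Cck-high cells. Cells under 10% made up 4.47% of 2010109I03Rik-high cells (3.48 to 5.66%), 29.9% of Ccl6 and Ccl9 cells (26.8 to 33.2%) and 79.9% of Cck-high cells (77.5 to 82.1%). A few Cck-high cells had shares as high as the 2010109I03Rik-high cells, and 98.1% were under 30%. Among cells with none of the rules 35.6% were under 10% and the median was 39.7%, so this group held both kinds.

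**Figure D3:**
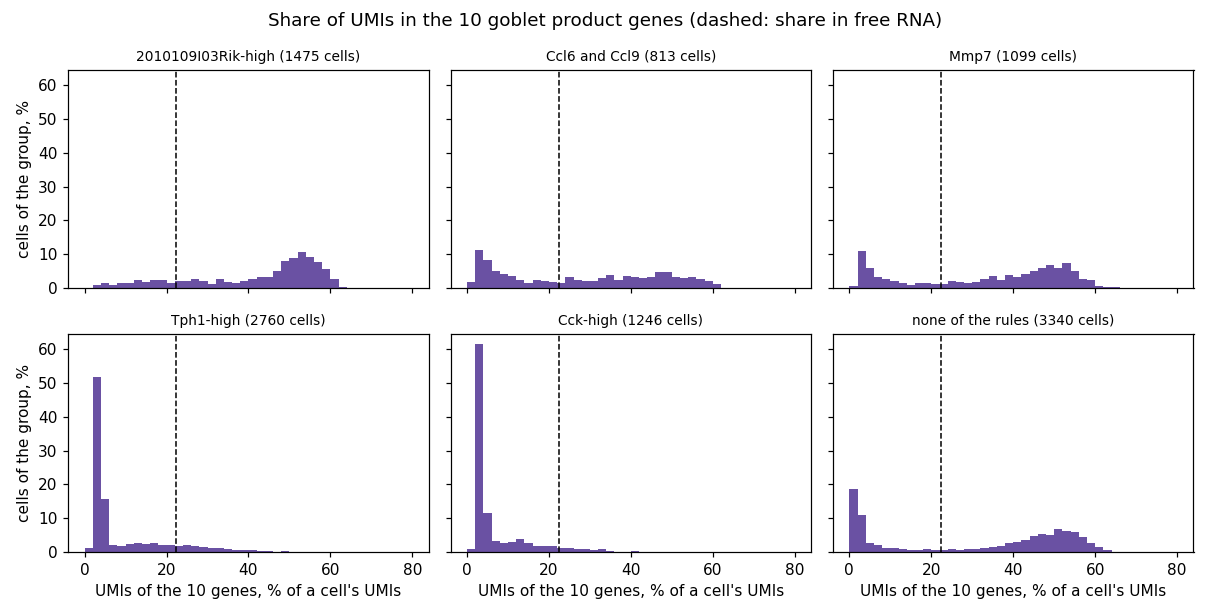
Distribution of the share of a cell's UMIs in the 10 genes (x, bins of 2%) as a percent of the cells of each group (y), with the free RNA share of 22.4% dashed. Tph1-high and Cck-high cells pile up near 4%, 2010109I03Rik-high cells near 50%, and the Mmp7, Ccl6 and Ccl9, and rule-free groups show both.

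Over the 9451 cells, 5 of the genes moved together. The correlation of log(1 + UMIs per 10000) was 0.890 to 0.944 for every pair among Muc2, Tff3, Zg16, Fcgbp and Clca1, 0.804 to 0.838 between Spink4 and each of these, and 0.476 to 0.545 between Agr2 and each of these. Guca2a was closest to Spink4 among the 10 genes (0.629). These are descriptions over cells of 1 library that share free RNA and depth. A UMI in at least 5% of cells was found for 7374 genes. With the 10 genes themselves left out of these, the gene most like Muc2, Tff3, Zg16, Fcgbp, Clca1 and Spdef was AW112010 (r = 0.865 with Zg16, 0.778 with Muc2, 0.400 with Spdef), followed by Ifi27l2b, Tmsb10, Gsta4, Ccl6 and S100a6 in varying order. Among the genes outside the 10, Ccl6 was most like Spink4 (0.783), Guca2a (0.596) and Agr2 (0.547). Next after it came AW112010 and Klk1 for Spink4, Tpsg1 and Klk1 for Guca2a, and Sh3bgrl3 and AW112010 for Agr2. Retnlb was most like Ang4 (0.421), Itln1 (0.389) and Ccl6 (0.329), the first a Paneth and goblet cell ribonuclease and Itln1 a secreted lectin. Ccl6 is one of the genes of a group rule.

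The bulk libraries asked which of these genes differ between CCK+ cells and the rest of the epithelium, and whether refeeding moves them. Values are gene counts divided by DESeq2 normalization factors ("normalized counts"), which are not scaled by gene length, so genes are not compared with one another. The library sums ranged from 7061155 to 11371114 normalized counts, of which the 10 genes made up 0.207 to 0.507%. Cck, the gene behind the sort, was 14837 to 32592 in the 6 CCK+ libraries and 27.6 to 86.0 in the 6 CCK- libraries, as the labels of the table have it. All 10 EEC markers were called higher in CCK+ libraries (sum 104103 to 331132, against 1521 to 3120), as were 6 of 6 immune markers (3310 to 7653, against 338.2 to 849.8), and 6 of 8 enterocyte markers were called lower. Of the 12 other goblet markers 4 were higher and 3 lower, against 19.6% and 14.1% of all genes. Of 7 Paneth markers 0 were called by limma (0 at an unadjusted p under 0.05), with sums from 1680 to 25182 that varied widely within groups, of 4 tuft markers 0 (0), and of 4 markers of cycling crypt cells 2 were called higher. A tuft marker was at 0 in every library of some groups, and no marker of the other lists was. The part of these cells in the results was not tested, and in bulk RNA fewer cells of a type and less RNA per cell cannot be told apart.

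Agr2 stood out among the 10 genes in CCK+ cells. Its normalized counts in fasted CCK+ libraries were 2442, 1529 and 2536 and in refed ones 2911, 3048 and 2081, whereas they were 253.7, 263.7 and 319.3 in fasted and 534.7, 581.7 and 548.4 in refed CCK- libraries. The lowest CCK+ library thus lay well above the highest CCK- library. Agr2 was 6.01-fold higher in CCK+ cells (log2 difference 2.59, SE 0.14, adjusted p = 9.34e-09 by limma with Benjamini-Hochberg adjustment over 22042 genes), and higher in each of 6 mice. It was 7.60-fold higher in the fasted libraries alone and 4.76-fold in the refed ones. Agr2 was the only one of the 10 genes whose CCK+ and CCK- libraries did not overlap, which over all genes was the case for 15.7%.

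**Figure D4:**
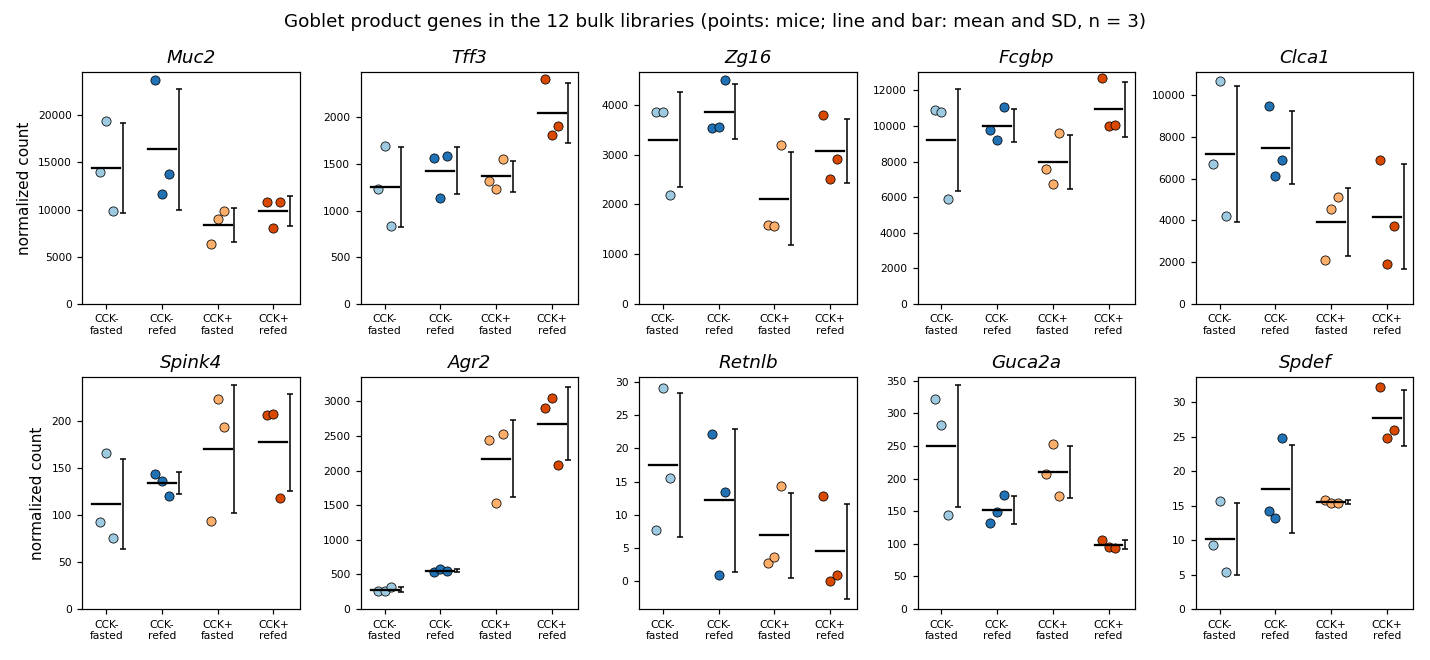
Normalized counts (y, from 0 for all but Retnlb) of the 10 genes in the 12 libraries, by sort gate and feeding state, with the mean (line) and SD (bar) of 3 mice. For Agr2 the CCK+ libraries lie at 1529 to 3048 and the CCK- libraries at 253.7 to 581.7, and refed CCK- libraries lie above fasted ones.

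The mucin and its protease were lower in CCK+ cells. Muc2 ranged from 6325 to 10780 (median 9391) in CCK+ and from 9889 to 23727 (median 13855) in CCK- libraries, and fell by 0.72 on the log2 scale (SE 0.21, 1.64-fold, adjusted p = 0.0146, limma). It was lower in the CCK+ library of each of 6 mice. Clca1 ranged from 1928 to 6909 in CCK+ and from 4205 to 10662 in CCK- libraries, and fell by 0.94 (SE 0.31, 1.92-fold, adjusted p = 0.0310, limma), with a lower CCK+ library in 5 mice of 6. The libraries of the 2 gates overlapped for both genes. These calls were less firm than that of Agr2: Muc2 missed the threshold without any 1 of the 3 libraries CCK- fasted 2 (adjusted p = 0.0514), CCK+ fasted 1 (0.0675) and CCK+ refed 2 (0.0700), and Clca1 without any of 9 of the 12 libraries (0.0586 to 0.141). With all libraries rescaled to the same sum, which moved the median difference of all genes from 0.09 to 0.35, Muc2 was at -0.32 (adjusted p = 0.217) and Clca1 at -0.54 (0.165). Clca1 has near relatives that were quantified beside it, so reads may have been split among them.

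The other 7 genes did not pass the test. Zg16 was at -0.51 (SE 0.20, adjusted p = 0.0635, limma), Retnlb at -1.44 (SE 0.75), Guca2a at -0.39 (SE 0.19) and Fcgbp at -0.02 (SE 0.17), the last with a 95% interval from -0.38 to 0.33. Spdef was at 0.68 (SE 0.33), Spink4 at 0.48 (SE 0.25) and Tff3 at 0.35 (SE 0.16). Under the same-sum scaling Tff3 (0.75, adjusted p = 0.00266), Spink4 (0.87, 0.00821) and Spdef (1.05, 0.0281) passed, and the sign of Fcgbp (0.37) and Guca2a (0.00) turned. Single libraries also decided calls: Zg16 passed without CCK- fasted 3 (-0.65, adjusted p = 0.0257) or CCK+ fasted 3 (-0.68, 0.0130), Guca2a without CCK- fasted 3 (-0.57, 0.00880), and Tff3 without CCK- fasted 2 (0.47, 0.0273). In all, 1 of the 10 genes was called higher and 2 were called lower, where over all genes 19.6% were called higher and 14.1% lower. The median difference of the 10 was -0.21 and that of all genes 0.09, on the log2 scale.

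**Figure D5:**
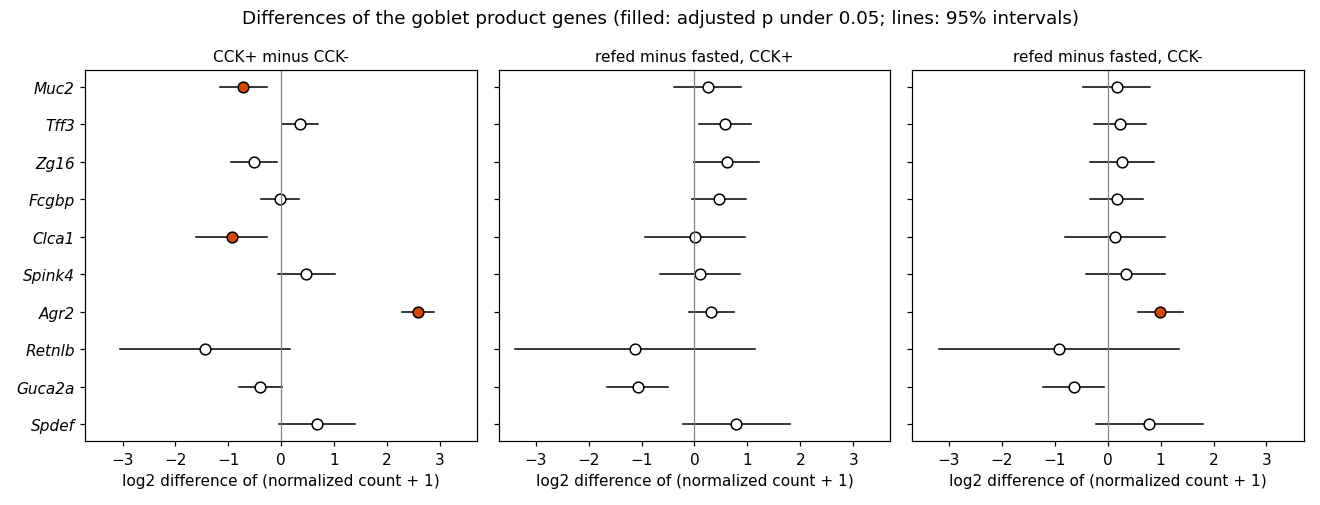
Log2 differences of (normalized count + 1) for the 10 genes with 95% intervals in 3 comparisons, filled where the adjusted p was under 0.05. Agr2 at 2.59 is the only filled point to the right of 0 in CCK+ against CCK-, with Muc2 (-0.72) and Clca1 (-0.94) to the left, and Agr2 (1.00) is the only filled point after refeeding, in CCK- cells.

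Refeeding was compared with fasting in each gate. In CCK- cells Agr2 rose 2.00-fold (log2 1.00, SE 0.20, adjusted p = 0.0297, limma), from 278.9 ± 35.4 to 555.0 ± 24.1 normalized counts (SD, n = 3), with no overlap of the libraries. It was the only 1 of the 10 genes called there, against 0.708% of all genes called higher and 0.526% called lower, and the only one whose libraries did not overlap (16.2% of all genes). The call was lost without any 1 of 10 of the 12 libraries (adjusted p 0.0541 to 0.157), with the size between 0.93 and 1.10. In CCK+ cells Agr2 was 2169 ± 556 fasted and 2680 ± 523 refed (SD, n = 3), a log2 difference of 0.32 (SE 0.20, adjusted p = 0.460, limma). The difference between these effects was -0.68 (SE 0.29, adjusted p = 0.775, limma). For the other 9 genes it lay between -0.43 and 0.34. Of the 10 genes 0 were called for this difference, where over all genes 1 (0.00454%) was called. At an unadjusted p under 0.05 there was 1 of the 10, Agr2, and over all genes 1378 of 22042.

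In CCK+ cells 0 of the 10 genes passed the test after refeeding by limma, where 1.31% of all genes were called higher and 1.23% lower. At an unadjusted p under 0.05 there were 2 of the 10, Tff3 and Guca2a, and over all genes 3736 of 22042. Guca2a was closest to the threshold: its fasted libraries were at 206.9, 252.5 and 173.2 and its refed ones at 106.5, 95.5 and 94.3 (log2 difference -1.07, SE 0.27, adjusted p = 0.0517, limma). All 3 refed libraries lay below the fasted ones. Without genes averaging under 10 normalized counts the adjusted p was 0.0410, and without the library CCK- fasted 3 it was 0.0190. Tff3 was 1367 ± 164 fasted and 2044 ± 319 refed (SD, n = 3), a difference of 0.58 (SE 0.23, adjusted p = 0.215, limma). The libraries of the 2 states did not overlap for 4 of the 10 genes (Tff3, Fcgbp and Spdef higher refed, Guca2a lower), against 19.4% of all genes.

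The remaining refeeding differences did not pass the test. In CCK+ cells they were 0.61 for Zg16 (SE 0.28), 0.46 for Fcgbp (SE 0.23), 0.79 for Spdef (SE 0.47), 0.25 for Muc2, 0.10 for Spink4, 0.01 for Clca1 and -1.12 for Retnlb (SE 1.06). In CCK- cells Guca2a was at -0.64 (SE 0.27), Spdef at 0.78 (SE 0.47) and Retnlb at -0.92 (SE 1.06), and the other 6 genes lay between 0.13 and 0.34. Retnlb counts were between 0 and 29.2 in the 12 libraries.

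Genes of the same families were read from a list of paralogs. Agr3, the paralog of Agr2, was 74.7 to 189.2 in CCK+ and 1.03 to 7.55 in CCK- libraries, 32.5-fold higher (log2 5.02, SE 0.39, adjusted p = 2.66e-07, limma). In the droplet cells Agr3 was at 3.96 UMIs per 10000 in Cck-high, 2.75 in Tph1-high and 0.382 in 2010109I03Rik-high cells, with 0.543 in free RNA. Guca2b, which encodes uroguanylin, the other ligand of guanylate cyclase C, fell by 1.43 after refeeding in CCK+ cells (SE 0.26, 2.69-fold, adjusted p = 0.0118, limma), from 8935 to 13097 in the fasted libraries to 2576 to 5435 in the refed ones. In CCK- cells Guca2b was at 9841 to 16323 in the fasted and 6400 to 6686 in the refed libraries, and was not called. Like Guca2a it was highest in the Ccl6 and Ccl9 cells (6.75 per 10000) and the Mmp7 cells (6.45), with 2.74 in free RNA. Of the 12 paralogs tested, 2 were called higher in CCK+ cells and 4 lower, against 19.6% and 14.1% of all genes. The higher ones were Agr3 and Clca3b (1.92-fold), and the lower ones included Clca4b (2.58-fold), Spink1 (1.96-fold) and Clca3a1 (1.89-fold).

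Of 11 other mucin genes 3 were called higher in CCK+ cells and 2 lower, against 19.6% and 14.1% of all genes. Muc20 was 5.80-fold higher, Muc3a 3.74-fold and the cell-surface mucin Muc4 2.00-fold, whereas the transmembrane mucin Muc13 was 1.56-fold lower and Muc3 2.01-fold lower. Muc20 was low, at 19.4 to 47.7 normalized counts in CCK+ and 1.11 to 17.2 in CCK- libraries. Muc3 also fell by 1.61 on the log2 scale after refeeding in CCK+ cells (adjusted p = 0.0350, limma). In CCK- cells Muc3 was at 305840 to 407461 in the fasted and 159287 to 255672 in the refed libraries, and was not called. Of 29 mucin glycosylation genes 5 were higher and 9 lower. Fut2, a fucosyltransferase, was 4.28-fold higher, St6galnac4 5.88-fold and Galnt12 2.30-fold, and the core enzyme B3gnt6 was 2.83-fold lower, St3gal4 2.02-fold and Gcnt4 1.79-fold. St6galnac4 was low, at 5.65 to 41.5 normalized counts in CCK+ and 0.737 to 10.1 in CCK- libraries. B3gnt6 was low too, at 1.37 to 6.82 and 6.48 to 17.9, and for both genes the libraries overlapped. After refeeding St3gal4 fell in CCK+ cells (log2 -0.99) and the initiating enzyme Galnt6 rose in CCK- cells (1.82-fold).

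Of 23 genes of protein folding in the secretory pathway 9 were higher in CCK+ cells and 6 lower. The shares of all genes were 19.6% and 14.1%. Beside Agr3, the isomerase Txndc5 was 2.29-fold higher and the stress sensor Ern2 2.05-fold, and P4hb was 2.12-fold lower, Ero1b 1.82-fold and Sel1l 1.61-fold. In Cck-high droplet cells Txndc5 (1.48 UMIs per 10000) and Ern2 (0.186) were below free RNA (2.18 and 0.692), unlike Agr3. Refeeding raised 9 of the 23 in CCK+ cells, where 1.31% of all genes were called higher, and 3 in CCK- cells, where 0.708% were. The median refeeding difference of the 23 was 0.55 in CCK+ and 0.43 in CCK- cells on the log2 scale, and that of all genes was 0.01 in CCK+ cells and 0.00 in CCK- cells. In CCK+ cells Pdia6 rose 2.75-fold, Pdia4 2.56-fold, Creld2 2.51-fold and the chaperone Hsp90b1 2.08-fold, and in CCK- cells Kdelr3 rose 2.85-fold, Creld2 2.06-fold and Hsp90b1 2.06-fold. Of 11 goblet transcription factors 5 were higher and 1 lower in CCK+ cells. The forkhead factors were among the first: Foxa1 was 250.3 to 1126 in CCK+ and 47.5 to 73.4 in CCK- libraries (9.07-fold), Foxa2 was 8.92-fold and Foxa3 4.01-fold higher. Klf4 was 1.31-fold lower. In the droplet cells Foxa1 was above free RNA (0.528 UMIs per 10000) in Tph1-high cells (1.85), and in Cck-high cells it was at 0.287. Foxa2 was at 0.330 in Cck-high, 0.311 in Tph1-high and 0.185 in 2010109I03Rik-high cells, with 0.164 in free RNA. Foxa3 was at 1.21 in Cck-high and 2.98 in 2010109I03Rik-high cells, with 2.40 in free RNA.

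Of 19 genes of granule release and ion transport 4 were higher in CCK+ cells and 6 lower. The granule GTPases Rab3d (6.30-fold) and Rab27a (2.29-fold) and the chloride channel Ano1 (6.99-fold) were higher. The chloride channel Cftr was 2.27-fold lower, the exchanger Slc26a3 2.28-fold, the exchanger Slc9a3 1.72-fold, and Prkg2, a cGMP-dependent kinase, 2.77-fold. In Cck-high droplet cells Rab3d was at 0.921 UMIs per 10000 (0.618 in free RNA) and Rab27a at 0.330 (0.837 in free RNA). Of 19 other genes associated with goblet cells 5 were higher and 4 lower. Reg4 was 87.8-fold higher (6000 to 30226 against 149.8 to 256.6 normalized counts), Fxyd3 30.5-fold and Wfdc2 4.81-fold, and Scin was 2.23-fold lower, Lypd8 2.21-fold and Rep15 1.55-fold. Wfdc2 was low, at 3.79 to 11.7 normalized counts in CCK+ and 0 to 4.90 in CCK- libraries, which overlapped. After refeeding Reg4 rose 2.48-fold and Tspan13 1.51-fold in CCK+ cells, and Scin rose 2.05-fold in CCK- cells. In the droplet cells Reg4 was 237.9 UMIs per 10000 in Tph1-high cells, with 36.8 in free RNA and 25.8 in 2010109I03Rik-high cells, and Fxyd3 was 15.1 in Tph1-high and 11.1 in Cck-high cells, with 4.66 in free RNA. Over the 7 lists together, 32 of 123 distinct genes were higher and 32 lower, where over all genes 19.6% were called higher and 14.1% lower. The difference of the refeeding effect between the gates was called for 0 genes of any of these lists, and for 1 of all genes.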

How the data were processed

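Mouse droplet and bulk RNA sequencing were used. The 10 genes, the cell rules and the gene lists were chosen with earlier results of these data known. For the droplet library, the authors aligned reads to mm10 with Cell Ranger 2.0.1, and the deposited values are raw UMI counts for all barcodes. For the bulk libraries, the authors trimmed reads with Trim Galore 0.6.7, quantified them with Salmon 1.6.0 on GRCm39 transcripts and divided gene counts by DESeq2 normalization factors, and this signal is what was deposited, with no read depth. Whole reads could not be recovered: 27.5 to 31.1% of values above 0 were whole multiples, within 0.01, of a library's commonest step. All 4 bulk groups have public titles of CCK+ cells. Groups were taken from the cell type labels, by which 2 of them are CCK-, as in the table.

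Droplet levels are summed UMIs over summed depth, per 10000. Bulk genes (22042) were tested with limma 3.58.1 in R 4.3.3 on log2(normalized count + 1), which understates changes of low genes, with 1 mean per group, a variance trend, 8 residual degrees of freedom and Benjamini-Hochberg adjustment at 0.05. Folds are on that scale. The test was tried on simulated data. The CCK+ and CCK- libraries were paired by a letter, A to F, in the sample names of the bulk table, which was taken as the mouse. The study's methods give 1 mouse per library and do not describe the pairing. After removal of group means the correlation over genes of the paired libraries was 0.0463 to 0.0650, and between mice it was -0.0455 to -0.00973. With 3 libraries per group, this removal makes a library's correlations with those of the other gate nearly cancel. The negative values therefore add no evidence of pairing. Each mouse is 1 replicate. All 10 genes are named in every comparison, and of each list the called genes with the largest differences, at most 3 per direction, and the most abundant called one; for each of the 10, the 3 genes most like it over cells. Alternatives were the pseudocount, a filter, another scaling, each library left out, the mouse as a block, and other cell rules. Python 3.11.15, numpy 2.4.6, scipy 1.17.1 and pandas 2.3.3 were used.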

Additional observations from a re-analysis of the deposited data

How the results depend on the processing

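Agr2 was called higher in CCK+ cells under each of the 19 alternatives run, at 2.25 to 2.99 on the log2 scale. The count of the 10 genes called in CCK+ against CCK- was 1 (Agr2) in the fasted libraries alone and 1 in the refed libraries alone, and 1 to 5 with each library left out (3 with all), and the count over the gene lists stayed within 1.5 times of 64. With the mouse as a replicate block it was 3, the lists gave 73, and no call among the 10 genes changed. After refeeding, with each library left out, the count was 0 to 1 in CCK+ cells and 0 to 1 in CCK- cells. With genes averaging 10 or more, it was 1 (Guca2a) in CCK+ cells. Where a call is lost with a library left out, the cause was not tested.

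No value whose sign turned passed the test with all libraries, and Guca2a in CCK+ against CCK- cells passed it without CCK- fasted 3 (-0.57, adjusted p = 0.00880, limma). With libraries rescaled to the same sum, Fcgbp was at 0.37 and Guca2a at 0.0017 in CCK+ against CCK- cells, and Fcgbp was at 0.12 in the refed libraries alone. With 1 library left out, Fcgbp ranged there from -0.17 to 0.052. After refeeding in CCK+ cells, Clca1 ranged from -0.45 to 0.47 and Spink4 from -0.28 to 0.37. In CCK- cells Muc2 ranged from -0.13 to 0.41, Tff3 from -0.027 to 0.48, Zg16 from -0.0087 to 0.40, Fcgbp from -0.12 to 0.32, Clca1 from -0.20 to 0.47 and Retnlb from -1.64 to 0.16. The difference between the refeeding effects ranged from -0.16 to 0.38 for Muc2, -0.58 to 0.34 for Clca1, -0.61 to 0.037 for Spink4, -1.31 to 0.59 for Retnlb and -0.34 to 0.36 for Spdef. It was -0.022 for Spdef at a pseudocount of 0.1, 0.11 for Retnlb at a pseudocount of 10 and 0.019 for Clca1 at the same sum.

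In the droplet cells, 6 genes were highest in 2010109I03Rik-high cells in each of the 13 alternatives, and Agr2 alone was above free RNA in Cck-high cells in each. The levels themselves moved more than their counting intervals: 466 levels under an alternative lay outside the interval and 314 within it. Leaving out the median over cells, Zg16 ran from 387.9 to 1265 per 10000 in the Ccl6 and Ccl9 cells. It ran from 646.8 to 1625 in the Mmp7 cells and from 1986 to 2533 in the 2010109I03Rik-high cells. With 1 Mmp7 UMI as the rule, 4 genes were highest in the Ccl6 and Ccl9 cells and 0 in the Mmp7 cells. By the median over cells, an alternative chosen after seeing the data, 1 was highest in the Mmp7 cells, where Retnlb has a median of 0 in every group. In cells with over 1500 genes, 1 gene, Agr2, was above free RNA in Tph1-high cells. Without read depth for the bulk libraries and with 1 droplet library, the precision of low genes such as Retnlb and Spdef in bulk, and the spread between animals in droplet data, are not known.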
